A study of Mus musculus with 32 samples.

Results

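Interferon-stimulated genes are the genes that cells switch on when an interferon reaches its receptor. The set described here held 46 of them, chosen by symbol from the 24421 genes of the count table, and all 46 were abundant enough to be among the 14154 genes tested. Their RNA was measured in 8 fractions of hematopoietic stem and progenitor cells sorted from the bone marrow of female C57BL/6 mice aged 10 weeks (Young) or 20 months (Aged), with 2 libraries in each of 16 groups. No transgene or treatment is named for either age, and marrow was pooled by age before sorting in duplicate. The p-values below therefore measure the spread between these pairs of libraries, which may be technical.

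The fractions were defined by surface antigens. HSCs were Lin- Sca-1+ c-kit+ cells without CD34, CD48 and Flt3 that carried CD150. The multipotent progenitors (MPPs) carried CD34: MPP1 was CD150+ CD48- Flt3-, MPP2 was CD150+ CD48+ Flt3-, MPP3 was CD150- CD48+ Flt3- and MPP4 was CD150- CD48+ Flt3+. Granulocyte-macrophage progenitors (GMPs) were Sca-1- c-kit+ CD34+ cells with Fc gamma receptors, megakaryocyte-erythrocyte progenitors (MEPs) lacked both of these antigens, and common lymphoid progenitors (CLPs) were low in Sca-1 and c-kit and carried the IL-7 receptor. Some transcripts of the gating antigens followed these labels. Mean Fcgr3 was 481 counts per 1000000 (CPM) in young GMPs against 1.65 in young MEPs. Mean Flt3 was 1063 CPM in young MPP4 against 27.9 in young HSCs, and mean Il7r was 158 CPM in young CLPs against 0 in young HSCs. Others followed them less closely. Mean Cd34 was 204 CPM in young HSCs against 654 in young MPP1. Mean Ly6a, the transcript of Sca-1, was 35.2 CPM in young CLPs but 214 in aged CLPs, against 210 in aged MPP1. Mean Il7r was 13.4 CPM in young MEPs against 0.309 in aged MEPs. Library totals ran from 11237384 to 17723245 counts, and the paired libraries of every group differed by more than sampling noise, with a mean chi-square per gene of 4.83 to 20.2 where sampling alone gives about 1.

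Type I interferons signal through a receptor made of Ifnar1 and Ifnar2 and the kinases Jak1 and Tyk2 to a complex that holds Stat2 and Irf9 and binds the interferon-stimulated response element (ISRE) of target genes. Interferon-gamma signals through Ifngr1 and Ifngr2, Jak1 and Jak2 to the gamma-activated site (GAS) of its targets, and the GTPases that defend cells against intracellular microbes are among the strongest of them. Many genes respond to both, and in bone marrow both interferons are known to push dormant HSCs into cycle. The 46 genes were ordered by role into 17 type I core genes, 8 interferon-gamma GTPases, 9 nucleic acid sensors and enzymes, 5 membrane and secreted proteins, and 7 genes of ubiquitin, ADP-ribose and nuclear-body functions.

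Both response elements can be read in the promoters. RefSeq windows from 250 bases before to 50 bases after the start of transcription (build GRCm38.p6) were found for 35 of the 46 genes. The ISRE core, spelled GAAANNGAAA and searched on both strands, was present in the windows of 21 of the 35 genes, or 60%, against 3.99% of the 27025 genes with a window and 3.44% of all 32851 windows. It was present for 7 of the 7 GTPases with a window and for 6 of 12 type I core genes. The GAS, spelled TTCNNNGAA and identical on both strands in its fixed letters, was present for 12 of 35 genes, or 34.3%, against 9.55% of genes with a window and 8.3% of all windows, and for 4 of 7 GTPases against 2 of 12 type I core genes. A match describes the letters of a window and was not tested as a site. The excerpts, read 5′ to 3′ along the gene, show genes whose levels the results turn on, with each ISRE core on either strand in capitals, and these cores begin 24 to 165 bases before the RefSeq start.

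Ifit1, chr19:34640765-34640833, plus strand, 2 cores: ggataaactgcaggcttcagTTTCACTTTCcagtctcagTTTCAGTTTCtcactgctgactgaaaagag
Ifit3, chr19:34583353-34583436, plus strand, 2 cores: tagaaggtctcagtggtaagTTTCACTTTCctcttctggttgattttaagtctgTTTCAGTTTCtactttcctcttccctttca
Isg15, chr4:156200855-156200916, minus strand, 3 overlapping cores: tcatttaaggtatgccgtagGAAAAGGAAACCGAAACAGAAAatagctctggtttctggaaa
Rsad2, chr12:26456543-26456592, minus strand, 1 core: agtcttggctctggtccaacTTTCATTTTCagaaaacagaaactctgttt
Gbp2, chr3:142620584-142620633, plus strand, 1 core: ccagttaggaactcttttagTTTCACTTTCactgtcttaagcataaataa
Gbp5, chr3:142496749-142496798, plus strand, 1 core: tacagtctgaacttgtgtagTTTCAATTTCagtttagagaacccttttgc
Igtp, chr11:58199502-58199551, plus strand, 1 core: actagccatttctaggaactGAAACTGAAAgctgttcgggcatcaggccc
Irgm2, chr11:58214893-58214942, plus strand, 1 core: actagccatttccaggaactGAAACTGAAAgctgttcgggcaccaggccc
Irgm1, chr11:48871421-48871470, minus strand, 2 overlapping cores: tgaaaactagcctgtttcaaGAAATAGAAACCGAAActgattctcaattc
Bst2, chr8:71537567-71537622, minus strand, 2 overlapping cores: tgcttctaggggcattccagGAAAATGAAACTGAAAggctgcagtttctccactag

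The excerpts of Igtp and Irgm2, neighbouring GTPase genes on chromosome 11, were the same at 48 of 50 bases. In the annotation the span of Igtp (58199556 to 58207591) lies almost wholly inside that of Irgm2 (58199618 to 58222782) on the same strand, and the spans of Dtx3l (35926511 to 35939151) and Parp9 (35938470 to 35972605) meet on chromosome 16. Reads of such pairs, and of the close relatives Ifit3, Oas1a, Ifi203, Ifi204, Trim30a and the Gbp genes, can be divided uncertainly between genes.

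The young hierarchy set the base from which the age differences were read. Interferon-stimulated genes were highest in young HSCs and MPPs and fell in the oligopotent progenitors. The highest level per kilobase of exon in young HSCs was that of the 3 Ifitm genes, which block virus entry, with 772 CPM per kilobase for Ifitm3, 740 for Ifitm1 and 681 for Ifitm2, followed by 184 for the secreted glycoprotein gene Lgals3bp and 93.9 for Bst2, whose product tethers virus particles to the membrane. The lowest were the antiviral dynamin-like genes Mx1, at 0.176 CPM per kilobase, and Mx2, at 0.292, with the DNA sensor gene Ifi204 at 0.529. In young CLPs the order differed: Bst2 was the highest of the set, at 474 CPM per kilobase, and Ifitm2 followed at 195.

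**Figure D1:**
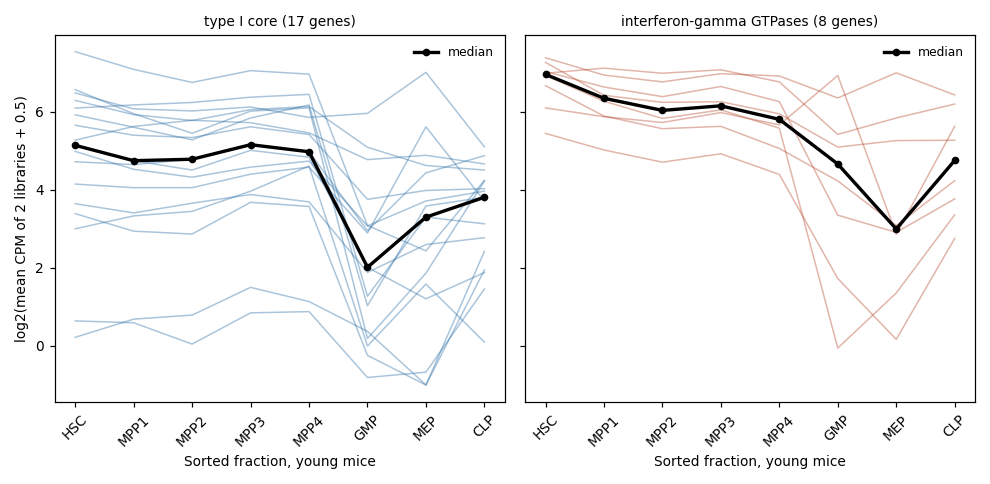
Levels of the 17 type I core genes (left) and the 8 interferon-gamma GTPases (right) in the 8 fractions of young mice, as log2 of the mean CPM of 2 libraries plus 0.5. Thin lines are genes and the black line is their median, which is lowest in GMPs for the type I core genes and in MEPs for the GTPases.

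Against the mean of the 4 young MPP fractions, 18 of 46 genes were higher in young HSCs and 3 were lower (edgeR quasi-likelihood test, adjusted p under 0.01), while over all genes tested 19.2% were higher and 18.9% were lower. Of the 8 GTPases 6 were higher, with a median log2 difference of 0.62 over the 8, against 0.02 over all genes. Irgm2, which guards membranes in the same family as Igtp, was higher by 1.15 ± 0.11 (log2, SE; adjusted p = 1.67e-08), Igtp by 1.05 ± 0.11 and Iigp1, which coats the vacuoles of intracellular microbes, by 1.01 ± 0.20. All 5 membrane and secreted genes were higher, led by Ifitm1 at 1.72 ± 0.11 (adjusted p = 1.82e-11). The 3 lower genes were the DNA sensor genes Ifi204, at -1.55, and Ifi203, at -0.41, and the ADP-ribosyltransferase gene Parp14, at -0.77.

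In young GMPs 2 of 46 genes were higher and 35 were lower than in young MPPs, where 32.1% and 32.7% of all genes were. The lower genes included 14 of the 17 type I core genes and 7 of the 8 GTPases. Iigp1 stood at 41.0 and 53.4 CPM in young MPP4 and at 0.926 and 0 CPM in young GMPs, a log2 difference from the MPP mean of -7.02 ± 0.45. Ifi44, an interferon-induced gene of the type I core, differed by -6.50 ± 0.32, with 18 and 0 counts in the young GMP libraries. Oas3, which makes the oligoadenylates that activate RNase L, differed by -5.34 ± 0.18 and Rtp4, which encodes a receptor transporter protein, by -5.07 ± 0.14. The 2 higher genes were the guanylate-binding protein gene Gbp3, at 1.13 ± 0.15, and Ifi204, at 1.16 ± 0.26.

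Young MEPs showed 2 higher and 37 lower genes, where 31.3% of all genes were higher and 39.5% were lower and the median over all genes was itself -0.29. Ifit3, which helps Ifit1 to hold foreign RNA, had 0 counts in both young MEP libraries and was at least 44.6-fold lower than in the young MPPs, taking 3 counts per library as the limit that a count of 0 allows. Mx1 also had 0 counts in both and was at least 7.49-fold lower. Gbp5 differed by -5.36 ± 0.39, and Ifi204 had 0 and 2 counts in young MEPs. The 2 higher genes were Oasl1, an oligoadenylate synthetase relative known to restrain Irf7, at 1.37 ± 0.11, and Cmpk2, a mitochondrial nucleotide kinase, at 1.00 ± 0.06. With a correction for GC content and length the split in young MEPs moved to 8 higher and 33 lower, and over all genes from 4429 higher and 5589 lower to 6390 and 3946. The same correction moved the split over all genes in young GMPs from 4548 and 4632 to 5849 and 3535, and that of the 46 genes to 3 and 35.

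Young CLPs held 6 higher and 32 lower genes, against 28.2% and 25.2% of all genes. The higher genes were Bst2 (2.77 ± 0.09), Mx1 (1.66 ± 0.45), the nuclear-body gene Sp100 (0.65 ± 0.08), the ubiquitin ligase gene Trim25 (0.59 ± 0.08), its relative Trim30a, and Samhd1, which breaks down the nucleotides that viruses need. The most strongly lower were Oas2 at -4.57 ± 0.46, Ifitm1 at -3.52 ± 0.16, Oas3 at -3.25 ± 0.14 and Ifit1 at -3.07 ± 0.23. Bst2 and Mx1 are also known from plasmacytoid dendritic cells (pDCs), the main interferon-producing cells of blood and marrow. The 5 pDC markers Siglech, Ccr9, Klk1, Cox6a2 and Pacsin1 were all present in young CLPs, with a summed level of 1647 and 1649 CPM, against 0 to 22.4 CPM in the young libraries of the other fractions. Their part in the result was not tested.

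Between young and aged cells 37 of the 46 genes, or 80.4%, were called in at least 1 fraction, where 46.2% of all genes tested were. The members were chosen with earlier results of these data known, and the paired libraries may be technical. Of the 46, 20 were called higher only, 9 lower only, and 8 in both directions, depending on the fraction, which is 43.5%, 19.6% and 17.4%, against 20.1%, 16.6% and 9.5% of all genes. MPP2 had 4 of the 17 type I core genes called lower, MPP3 had 6 and MPP4 had 3, with Rsad2, Ifit1 and Ifit3 among them in each of these 3 fractions, whereas MPP1 had 0, with 13 of the 17 differences negative. Of the 8 GTPases, 6 were called higher in GMPs, 7 in MEPs and 5 in CLPs. The 9 genes called in no fraction were Oas1a, Oas2, Oasl1, Mx1, Mx2, the apoptosis factor gene Xaf1, the RNA helicase gene Dhx58, Parp14 and Sp100.

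**Figure D2:**
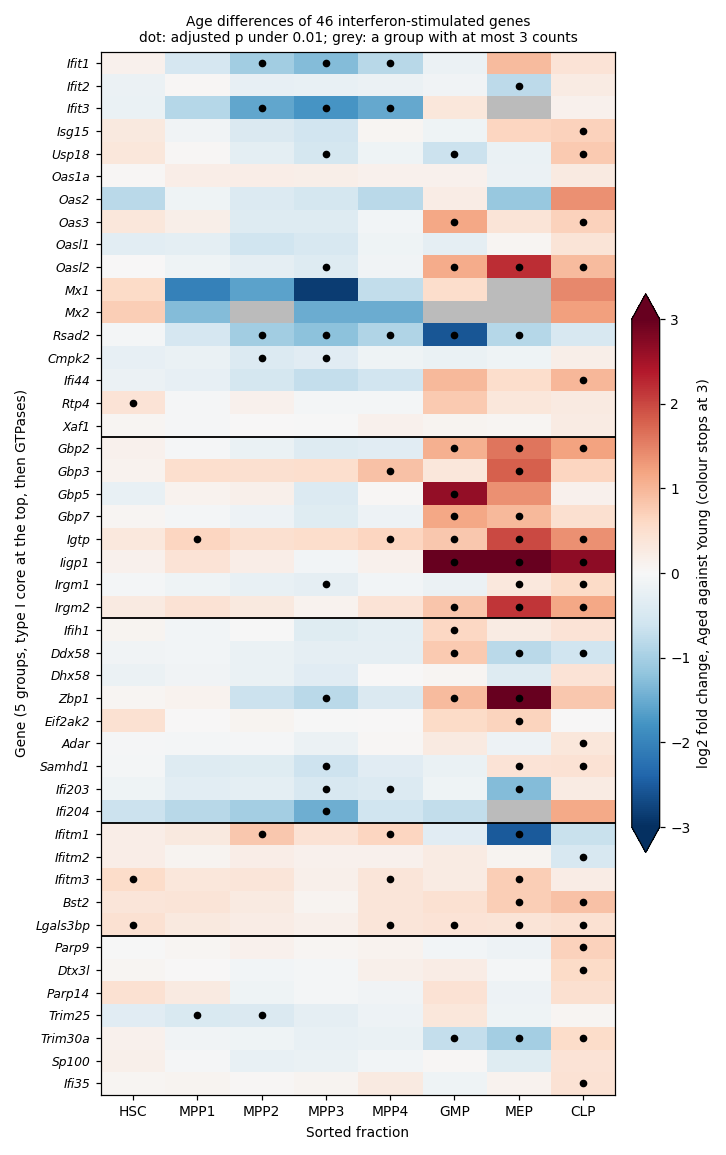
Log2 fold change of Aged against Young (colour, which stops at 3 in either direction) for the 46 genes (rows, in 5 role groups separated by lines) in the 8 fractions (columns). Black dots mark an adjusted p under 0.01, and grey cells have a group with at most 3 counts in both libraries. The Rsad2, Ifit1 and Ifit3 rows are blue with a dot in MPP2, MPP3 and MPP4, and the GTPase differences are positive for 7 of 8 genes in GMP and for 8 of 8 in MEP and CLP.

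HSCs and MPP1 held the fewest calls. In aged HSCs 3 of the 46 genes were higher and 0 were lower, where 3.74% of all genes were higher and 1.66% were lower. Ifitm3 rose from 497 and 549 CPM in the young libraries to 694 and 847 CPM in the aged ones (log2 fold change 0.56 ± 0.10, adjusted p = 5.87e-04). Lgals3bp rose from 517 and 530 to 654 and 788 CPM (0.46 ± 0.08), and Rtp4 from 58.7 and 61.3 to 74.2 and 86.6 CPM (0.42 ± 0.10). The young and aged libraries did not overlap for any of these, but the genes were picked by their calls, so this is no separate support. No GTPase was called and the median of the 8 was 0.12. The range over the 46 genes ran from -0.80 to 0.73. At an unadjusted p under 0.05 edgeR placed 3 of the 46 lower and 8 higher, the DESeq2 Wald test called 0 lower and 4 higher after adjustment, and the edgeR fit over the 4 HSC libraries alone called 0 higher, as did the fits without young replicate 1 or aged replicate 2. The neutrophil markers summed to 54.5 and 58.7 CPM in young and to 271 and 300 CPM in aged HSCs, and their part in the result was not tested.

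MPP1 had 1 gene higher and 1 lower, where 4.71% and 2.09% of all genes were called. Igtp rose from 84.2 and 85.7 to 131 and 135 CPM (0.65 ± 0.15, adjusted p = 0.00436), and Trim25, which activates the RNA sensor encoded by Ddx58, fell from 79.8 and 79.7 to 58.8 and 58.2 CPM (-0.45 ± 0.11). Both calls were lost when any one of the 4 MPP1 libraries was left out.

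Type I core genes were called lower in MPP2, MPP3 and MPP4. In MPP2 5 of the 46 genes were lower and 1 was higher, where 3.31% and 4.49% of all genes were; in MPP3 11 were lower and 0 were higher, where 5.79% and 8.14% were; and in MPP4 4 were lower and 5 were higher, where 6.27% and 10.3% were. In MPP3 edgeR placed 3 genes higher at an unadjusted p under 0.05, and the DESeq2 Wald test called 1. With DESeq2 size factors the MPP4 split became 5 lower and 4 higher, and that over all genes moved from 1459 higher and 888 lower to 1175 and 1085. Type I core genes made up 4 of the 5 lower genes in MPP2, 6 of 11 in MPP3 and 3 of 4 in MPP4, and 0 of the 17 were higher in any MPP fraction.

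Rsad2, which encodes viperin, an enzyme that makes a chain-terminating nucleotide against viral polymerases, fell in all of these. Its libraries stood at 40.1 and 39.8 CPM in young MPP2 and at 20.8 and 18 CPM in aged MPP2 (-1.04 ± 0.14, adjusted p = 3.21e-05). In MPP3 it went from 47.6 and 49.1 to 19.2 and 21.7 CPM (-1.24 ± 0.14, adjusted p = 1.70e-06), and in MPP4 from 39.8 and 44.5 to 22.3 and 22.8 CPM (-0.90 ± 0.13). The aged libraries lay at roughly the same low level in these 3 fractions, and the HSC libraries, at 54.6 and 44.9 CPM young and 48.7 and 46 CPM aged, overlapped.

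Ifit1, which binds the uncapped or unmethylated ends of foreign RNA, and its helper Ifit3 followed the same course. Ifit1 stood at 30.6 and 32.9 CPM in young MPP3 and at 12.6 and 13.2 CPM in aged MPP3 (-1.30 ± 0.22), and fell by 1.05 in MPP2 and by 0.84 in MPP4 on the log2 scale. Ifit3 fell from 11.9 and 12.7 to 3.28 and 3.86 CPM in MPP3 (-1.78 ± 0.33), by 1.56 in MPP2 and by 1.53 in MPP4. Cmpk2, the neighbour of Rsad2 on chromosome 12, fell less, by 0.42 in MPP2 and 0.35 in MPP3. Usp18, which removes the Isg15 modifier and brakes the type I receptor, fell by 0.53 in MPP3, and Oasl2 by 0.39. For Ifit2, the third member of the Ifit family here, the MPP3 libraries stood at 53.6 and 50.6 CPM young and 42.7 and 46.7 CPM aged, and the difference was not called.

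Of the 9 sensors and enzymes, 4 were lower in MPP3. The DNA sensor gene Ifi204 went from 9.93 and 9.53 to 3.55 and 3.50 CPM (-1.46 ± 0.37), Zbp1, which senses left-handed nucleic acid and can start necroptosis, from 21.2 and 21.6 to 13.1 and 11.2 CPM (-0.82 ± 0.19), and Samhd1 and Ifi203 fell by 0.61 and 0.49. Irgm1 was the 1 GTPase called lower in an MPP fraction, by 0.28 in MPP3, where 5 of the 8 GTPase differences were negative. Markers of mature myeloid and erythroid cells fell in the same fraction: the 7 macrophage and monocyte markers summed to 621 and 624 CPM in young MPP3 and to 283 and 311 in aged MPP3, the 5 neutrophil markers to 1071 and 1077 against 173 and 235, and the 6 erythroid markers to 1054 and 1024 against 216 and 196, with every listed marker detected. In MPP2, where Rsad2, Ifit1 and Ifit3 fell too, each of these sums was lower in both aged libraries. The erythroid markers stood at 895 and 937 CPM in young MPP2 and at 215 and 205 in aged MPP2. The macrophage markers stood at 488 and 504 against 302 and 314, and the neutrophil markers fell from 651 and 691 CPM in the young libraries. In MPP4, where Rsad2, Ifit1 and Ifit3 also fell, the neutrophil markers were at 27.8 and 34.8 CPM young and 35.2 and 36.9 CPM aged. The macrophage markers of MPP4 were at 308 and 364 against 233 and 237, and the erythroid markers at 345 and 419 against 108 and 105. The part of these markers in the result was not tested, and in sorted bulk samples fewer cells of a type and less RNA per cell cannot be told apart.

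A smaller group of members was called higher in aged MPPs, a share near or below that of all genes. It was 10.9% against 10.3% in MPP4 and 2.17% against 4.49% in MPP2. In MPP4 Gbp3 went from 50.9 and 49.2 to 89.6 and 96.4 CPM (0.89 ± 0.20) and Igtp from 56.0 and 66.2 to 94.2 and 96.6 CPM (0.64 ± 0.15). Ifitm1 rose by 0.80 ± 0.15 in MPP2, from 165 and 177 to 297 and 299 CPM, and by 0.65 ± 0.15 in MPP4. Ifitm3 and Lgals3bp rose by 0.37 each in MPP4, where Ifi203 fell by 0.41. The count of higher genes in MPP4 was 0 when young replicate 1 or aged replicate 2 of that fraction was left out.

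Averaged over MPP1 to MPP4, the fit called 7 of the 46 genes higher and 17 lower, where 18.9% and 17.7% of all genes were called, so that the share of higher members was below and the share of lower members above that of all genes. The type I core held 9 of the 17 lower genes and 0 of the 7 higher ones. Besides Ifit3 (-1.43 ± 0.16), Ifit1 (-0.92 ± 0.11) and Rsad2 (-0.92 ± 0.07), Mx1 differed by -1.80 ± 0.39, at levels of 0.143 to 1.30 CPM in the aged libraries and 0.872 to 2.71 CPM in the young ones. The laboratory strain C57BL/6 carries a defective Mx1 allele, so its transcript reports on induction and not on the protein. The higher genes were Gbp3 (0.60), Igtp (0.58), Ifitm1 (0.55), Irgm2 and Ifitm3 (0.31 each), Bst2 (0.28) and Lgals3bp (0.26).

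**Figure D3:**
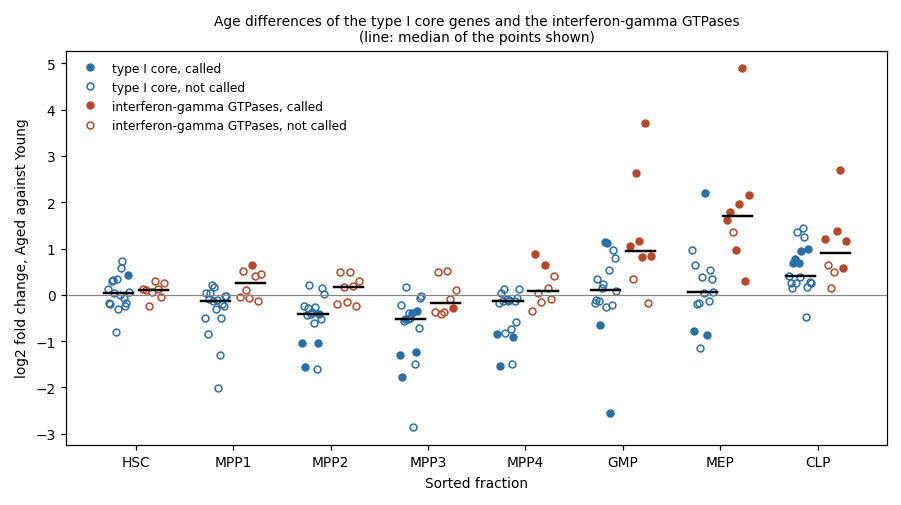
Log2 fold change of Aged against Young in each fraction for the type I core genes (blue) and the interferon-gamma GTPases (red). Each circle is a gene, filled where its adjusted p was under 0.01, and the black lines are medians of the circles shown, after leaving out genes with at most 3 counts in both libraries of a group. The median of the type I core was lowest in MPP3, at -0.52, and that of the GTPases highest in MEP, at 1.71.

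In aged GMPs the GTPases rose while Rsad2 fell further than in any other fraction. The fit called 12 of the 46 genes higher and 3 lower, where 9.93% and 8.97% of all genes were called. Of the 8 GTPases 6 were higher, with a median of 0.94. Gbp5, which helps to assemble the inflammasome, rose from 2.71 and 2.90 to 16.9 and 18 CPM (2.63 ± 0.35, adjusted p = 8.81e-06). Gbp7 rose from 41.8 and 42.6 to 89.4 and 100 CPM (1.17 ± 0.16), and Gbp2, Irgm2 and Igtp rose by 1.06, 0.83 and 0.81. Iigp1 had the largest fold change, 3.72 ± 0.64, at low levels, with young libraries at 0.926 and 0 CPM and aged ones at 3.58 and 8.64 CPM.

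Type I core genes were called both ways in GMPs, with 2 of 17 higher and 2 lower. These shares, 11.8% each, were near the 9.93% and 8.97% of all genes. Rsad2 went from 12.5 and 13.4 CPM to 1.88 and 2.49 CPM (-2.56 ± 0.19, adjusted p = 9.73e-09) and Usp18 fell by 0.65, whereas Oas3 rose by 1.15 ± 0.25 and Oasl2 by 1.12 ± 0.13, from 6.70 and 9.26 to 19.0 and 15.8 CPM. The RNA sensor genes Ddx58 and Ifih1, which encode RIG-I and MDA5, rose by 0.79 and 0.63, Zbp1 by 0.95 and Lgals3bp by 0.41. Trim30a fell from 80.2 and 77.6 to 47.2 and 49.1 CPM (-0.71 ± 0.09). Against the mean age difference of the MPPs, 10 genes moved more upward in GMPs and 3 more downward, where 12.7% and 13.8% of all genes did. The erythroid markers summed to 813 and 732 CPM in young GMPs and to 78.8 and 29.8 in aged ones, and the macrophage markers to 1071 and 1115 against 738 and 849; their part in the result was not tested.

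The median rise of the GTPases was largest in MEPs. The fit called 14 of the 46 genes higher and 6 lower, where 9.09% and 11.7% of all genes were called, and 7 of the 8 GTPases were higher, with a median of 1.71. Iigp1 went from 2.75 and 1.36 CPM in young MEPs to 61.9 and 62.9 CPM in aged MEPs (4.89 ± 0.38, adjusted p = 3.25e-09), where the aged MPP libraries ran from 50.3 to 102 CPM. Irgm2 rose from 7.17 and 8.76 to 31.4 and 39.3 CPM (2.15 ± 0.18), Igtp from 33.7 and 41.9 to 137 and 159 CPM (1.97 ± 0.15), Gbp3 by 1.80 and Gbp2 by 1.61. Gbp7 and Irgm1 rose by 0.97 and 0.31, and Gbp5, at 0.961 and 0.287 CPM young and 1.12 and 2.15 aged, was not called.

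Outside the GTPases, Zbp1 rose from 1.34 and 1.36 to 13.1 and 14.5 CPM (3.34 ± 0.24, adjusted p = 1.17e-09) and Oasl2 from 4.29 and 5.53 to 24.3 and 21 CPM (2.21 ± 0.13, adjusted p = 6.16e-11). Oasl2 was the 1 type I core gene that rose in MEPs, and Rsad2 and Ifit2 fell by 0.86 and 0.78. Ifit3 had 0 counts in both young MEP libraries and 3 and 4 counts in the aged ones. These lie at or near the limit of 3 counts, so no fold is given, and Ifit3 was not called. Smaller rises were measured for Ifitm3 (0.74), Bst2 (0.73), Eif2ak2, which encodes the RNA-dependent kinase PKR (0.66), Samhd1 (0.41) and Lgals3bp (0.38).

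Other members fell in aged MEPs, where lymphoid markers fell too. Ifitm1 fell from 10.8 and 9.62 to 1.97 and 1.64 CPM (-2.51 ± 0.28), Ifi203 from 5.70 and 5.82 to 2.44 and 2.24 CPM (-1.30 ± 0.15), Trim30a from 25.0 and 27.6 to 13 and 12.7 CPM (-1.03 ± 0.10) and Ddx58 by 0.82. The 6 B cell markers summed to 181 and 169 CPM in young MEPs and to 1.22 and 0.43 in aged MEPs, where Cd79a, Ms4a1 and Igll1 were at 0; the T and NK markers summed to 29.5 and 32.7 against 11.8 and 15.7 and the macrophage markers to 13.9 and 13 against 4.31 and 5.34. Their part in the result was not tested.

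Against the mean age difference of the MPPs, 14 genes moved more upward in MEPs and 4 more downward, where 10.2% and 14.7% of all genes did, and 7 of the 8 GTPases were among the 14. The difference of the age differences was 4.73 ± 0.41 for Iigp1, 3.79 ± 0.26 for Zbp1 and 2.43 ± 0.14 for Oasl2, and -3.05 ± 0.29 for Ifitm1. With a correction for GC content and length the MEP count became 19 higher and 5 lower, and that over all genes moved from 1286 higher and 1658 lower to 2111 and 1139; in GMPs the same correction gave 15 higher and 4 lower members, and moved the count over all genes from 1405 and 1269 to 851 and 1429.

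**Figure D4:**
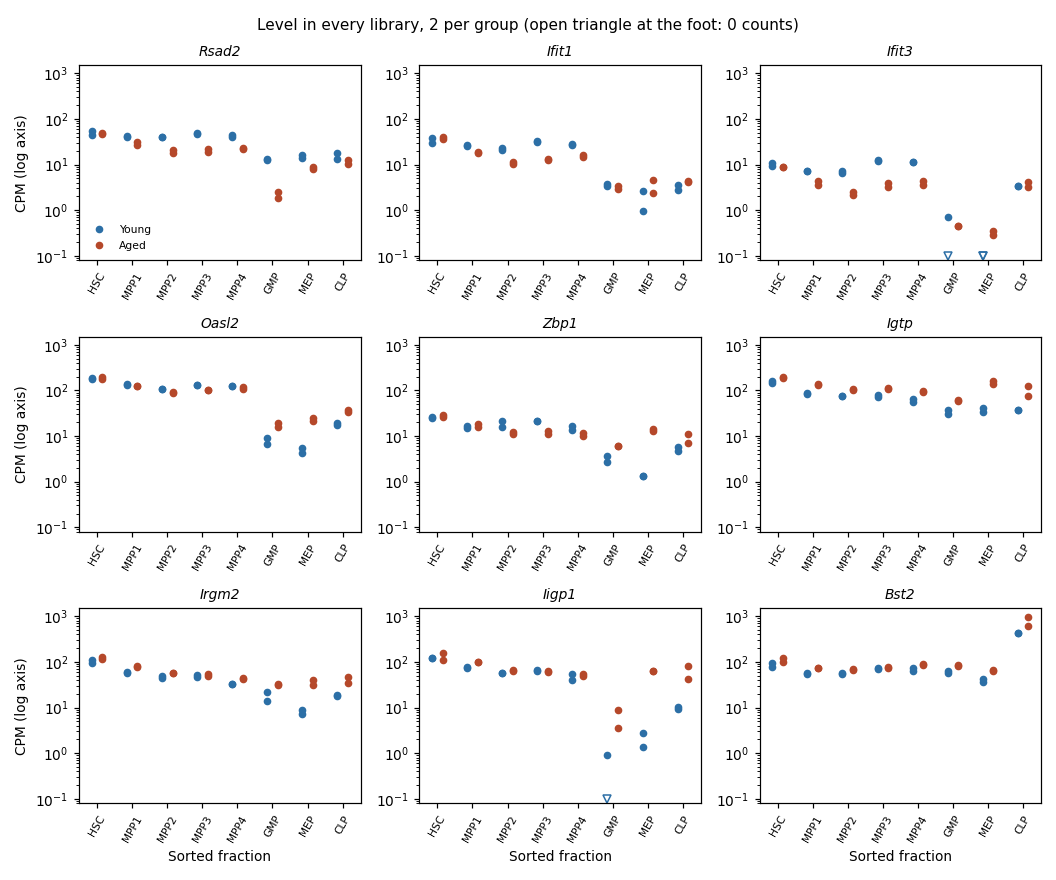
Level in CPM, on a log axis, of 9 genes in every library of the 8 fractions, with young libraries in blue and aged ones in red and libraries with 0 counts as open triangles at the foot. Rsad2, Ifit1 and Ifit3 lie lower in the aged MPP2, MPP3 and MPP4 libraries, and Iigp1, Irgm2, Igtp and Zbp1 lie higher in both aged MEP libraries.

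CLPs held the broadest rise in the fit over all libraries, whereas each fraction fitted alone gave 9 higher genes in MEPs and 0 in CLPs. The fit over all libraries called 18 of the 46 genes higher and 2 lower, where 5.71% and 4.73% of all genes were called. In it, 42 of the 46 fold changes were positive, with a median of 0.45 against 0.00 over all genes. Every role group took part: 5 of 17 type I core genes, 5 of 8 GTPases, 2 of 9 sensors and enzymes, 2 of 5 membrane and secreted genes and 4 of 7 ubiquitin, ADP-ribose and nuclear genes were higher. Igtp rose from 38.1 and 37.8 to 74.8 and 122 CPM (1.38 ± 0.15, adjusted p = 1.81e-06) and Iigp1 from 9.37 and 10.1 to 42.8 and 83.2 CPM (2.69 ± 0.31). Gbp2 rose by 1.21, Irgm2 by 1.16 and Irgm1, which is needed for normal HSC function in mice, by 0.57.

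Of the 17 type I core genes, 5 were higher in aged CLPs and 16 differences were positive. Ifi44 went from 17.9 and 18.6 to 41.0 and 31.3 CPM (0.99 ± 0.22), Oasl2 from 17.4 and 19.3 to 37.3 and 33.6 CPM (0.95 ± 0.11), Usp18 from 28.7 and 28.9 to 54.2 and 44.4 CPM (0.78 ± 0.13), and Isg15 from 6.41 and 6.24 to 11.5 and 8.99 CPM (0.69 ± 0.18, adjusted p = 0.00947), while Oas3 rose by 0.69. Bst2 rose from 429 and 427 to 945 and 626 CPM (0.88 ± 0.13). Parp9 and its partner ligase gene Dtx3l, Trim30a, Lgals3bp, Samhd1, Ifi35 and the RNA editing enzyme gene Adar rose by 0.35 to 0.68. The 2 that fell were Ddx58, by 0.60, and Ifitm2, by 0.47. Rsad2, at 18 and 13.5 CPM young and 10.1 and 12.4 CPM aged, did not rise with the others and was not called.

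The aged CLP libraries also held more transcripts of pDC genes. The 5 pDC markers, all detected, summed to 1647 and 1649 CPM in the young libraries and to 4937 and 3278 CPM in the aged ones, and Irf8, a factor abundant in pDCs, rose from 3169 and 3267 to 5308 and 4120 CPM. The 6 B cell markers summed to 2547 and 2615 CPM young and 1192 and 1191 CPM aged, the erythroid markers to 1315 and 1357 against 493 and 80.0, and Ly6a, which encodes the sort antigen Sca-1 and is itself known to respond to interferon, stood at 34.4 and 35.9 against 221 and 207 CPM. Their part in the result was not tested. Of the aged pair, the library richer in pDC markers had the higher level for 12 of the 17 type I core genes, and the other library for 7 of the 8 GTPases, with a median ratio between them of 1.09 and 0.631. Without the first of these libraries 14 genes were called higher, and without the second 16; without young replicate 2 there were 11. The edgeR fit over the 4 CLP libraries alone called 0 of the 46, with 29 higher and 2 lower at an unadjusted p under 0.05, while the DESeq2 Wald test called 24 higher and 3 lower.

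**Figure D5:**
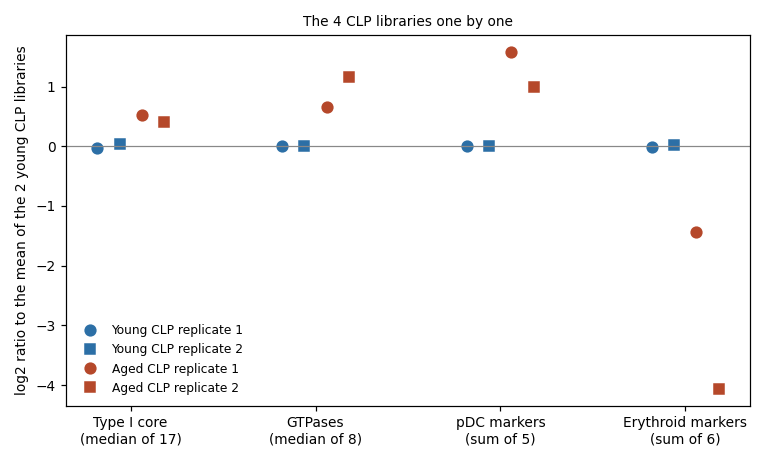
Log2 ratio of each of the 4 CLP libraries to the mean of the young pair, for the median type I core gene, the median GTPase and the summed pDC and erythroid markers. Circles are replicate 1, squares replicate 2, blue young and red aged. The pDC markers stand at 1.58 and 0.99 in the aged libraries, the GTPases at 0.66 and 1.16 and the type I core genes at 0.53 and 0.41.

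Set against the mean age difference of the MPPs, more genes were called in CLPs, but this comparison also takes in the falls in the MPPs. Of the 46 genes, 27 moved more upward in CLPs and 3 more downward, where 10.3% and 12.3% of all genes did. All 17 type I core differences were positive, 10 of them called, with a median of 0.96, and 6 of the 8 GTPases were called. The largest were 3.25 ± 0.71 for Mx1, which stood at 5.18 and 4.54 CPM in young and 11.5 and 15 CPM in aged CLPs, 2.53 ± 0.34 for Iigp1 and 2.11 ± 0.43 for Ifi204. Ifit3 and Ifit1 differed by 1.57 and 1.34. None of Mx1, Ifi204, Ifit3 and Ifit1 was called in the age comparison of CLPs itself. Ifit3 stood at 3.37 and 3.32 CPM in young and 4.17 and 3.20 CPM in aged CLPs. The 3 that moved more downward were Ifitm1 (-1.21 ± 0.20), Ifitm2 (-0.61 ± 0.12) and Ddx58 (-0.40 ± 0.11). In HSCs 2 genes moved more upward than in the MPPs and 0 more downward, where 1.91% and 1.1% of all genes did: Ifit1, by 1.05 ± 0.23, and Rsad2, by 0.86 ± 0.15. At an unadjusted p under 0.05 edgeR placed 17 genes more upward and 1 more downward in HSCs, and the DESeq2 Wald test called 8 more upward and 0 more downward after adjustment. All 4 of these comparisons share the 16 MPP libraries.

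Rsad2 fell in 5 fractions (MPP2, MPP3, MPP4, GMP and MEP), Igtp rose in 5 (MPP1, MPP4, GMP, MEP and CLP) and Lgals3bp rose in 5 (HSC, MPP4, GMP, MEP and CLP). The 8 genes called in opposite directions were Usp18, Oasl2, Irgm1, Ddx58, Zbp1, Samhd1, Ifitm1 and Trim30a. Oasl2, Irgm1, Zbp1 and Samhd1 fell in MPP3 and rose in MEPs. Ddx58 rose in GMPs and fell in MEPs and CLPs, Trim30a fell in GMPs and MEPs and rose in CLPs, Usp18 fell in MPP3 and GMPs and rose in CLPs, and Ifitm1 rose in MPP2 and MPP4 and fell in MEPs.

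Interferon signalling runs from the ligands through their receptors and kinases to the factors that bind the response elements, and the antigen processing genes are among the targets. Of the 37 listed ligand, receptor, kinase, factor, inhibitor and antigen processing genes, 29 were tested; the 8 ligand genes, among them Ifnb1, Ifng and Ifna1, had at most 3 counts in any library and were not. In aged CLPs 20 of the 29 were higher and 1 was lower, where 5.71% and 4.73% of all genes were. Stat2 rose from 90.4 and 79.3 to 198 and 173 CPM (1.13 ± 0.16, adjusted p = 3.42e-05), and its partner Irf9 by 0.68. Irf7, which drives the second wave of type I interferon and is high in pDCs, rose from 87.6 and 88.4 to 340 and 213 CPM (1.65 ± 0.16). Ifnar1 and Ifnar2 rose by 0.55 and 0.60, and the inhibitor gene Socs3 fell by 1.52.

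In aged MEPs 9 of the 29 were higher and 2 lower, where 9.09% and 11.7% of all genes were, and 6 of the 9 were antigen processing genes. In aged GMPs 8 were higher and 0 lower, where 9.93% and 8.97% of all genes were. At an unadjusted p under 0.05 edgeR placed 4 of the 29 lower in GMPs, and the DESeq2 Wald test called 3 lower after adjustment. Nlrc5, the transactivator of MHC class I genes, rose from 4.93 and 6.68 to 23.9 and 28.1 CPM in MEPs (2.17 ± 0.17) and from 8.34 and 7.12 to 32.3 and 30.7 CPM in GMPs (2.03 ± 0.16). Irf1, an early target of interferon-gamma, rose by 1.31 in MEPs and 0.83 in GMPs. The peptide transporter genes Tap1 and Tap2 rose in both. The 2 lower genes in MEPs were Irf5 (-4.66) and Irf8 (-3.41), beside the fall of B cell markers given above.

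Averaged over MPP1 to MPP4, 5 of the 29 were higher in aged cells and 11 lower, where 18.9% and 17.7% of all genes were. Of the 10 factors, Irf7 (-0.50), Irf5 (-0.65), Irf2 (-0.35), Irf1 (-0.22) and Irf8 (-0.24) were lower and Irf3 (0.19) was higher. The inhibitors Socs1 (-1.05) and Socs3 (-0.85), the kinases Jak1 (-0.22), Jak2 (-0.36) and Tyk2 (-0.19) and the receptor gene Ifngr1 (-0.21) were lower. Of the 8 antigen processing genes, 4 were higher, Tap1 (0.40) and the immunoproteasome genes Psmb8 (0.46), Psmb9 (0.36) and Psmb10 (0.25), and the other 4 were not called. In aged HSCs 1 of the 29 was called, where 3.74% of all genes were higher and 1.66% lower: Irf2, which opposes Irf1 at shared sites, at -0.38 ± 0.08.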

How the data were processed

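RNA of 32 libraries was amplified with a SMARTer low-input kit, fragmented and sequenced as single reads. The authors aligned the reads to mm10 with TopHat2 and Bowtie2 and deposited raw counts per gene made with StringTie; whether strand was used is not given in the sources used here, and no molecular identifiers were used. The authors' own comparison tables and normalized table were not used. The 46 members and all lists were chosen with earlier results of these data known. Counts were scaled by TMM, filtered by expression over the 16 groups to 14154 genes, and fitted with edgeR 4.0.16 (R 4.3.3) as 1 mean per group, with 16 residual degrees of freedom shared by all libraries. Quasi-likelihood F-tests (two-sided) were adjusted by Benjamini-Hochberg within each of 17 comparisons and called at an adjusted p under 0.01. CPM are counts per 1000000 of the TMM-scaled total, and errors of log2 differences are standard errors. The procedure was tested on simulated data. Alternatives were DESeq2 1.42.0 size factors and its Wald test, no filter, the replicate block, smooth offsets for GC content and length (mgcv 1.9.3; 14001 genes), each fraction alone and each library left out. Named were up to 4 called members per direction and comparison by size, those called in 5 or more fractions in one direction, and those called in opposite directions. The text also gives further called members, and uncalled Ifit2, Gbp5 and Rsad2 in CLPs, chosen after their values were seen. Gene spans are GENCODE M21 on GRCm38, and promoter windows RefSeq on GRCm38.p6. Some listed pathway and marker genes are counted in their lists but not reported here by name.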

Additional observations from a re-analysis of the deposited data

Results flagged for a closer look

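For 24 differences the age effect in a fraction was tested against the mean age effect of MPP1 to MPP4, and the adjusted p of the difference itself (edgeR) was under 0.01. The values are log2 differences with their SE, and all 4 comparisons share the MPP libraries.

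In HSCs the age effects of the type I core genes Ifit1 and Rsad2 were above the MPP mean age effect. The differences were 1.05 ± 0.23 (edgeR adjusted p = 0.00742) and 0.86 ± 0.15 (edgeR adjusted p = 9.39e-04).

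In GMPs the age effects, not the levels, of the GTPase genes Gbp5, Gbp7 and Iigp1 were above the MPP mean age effect. The differences were 2.66 ± 0.37, 1.36 ± 0.17 and 3.56 ± 0.66, and that of Zbp1 was 1.40 ± 0.25. Rsad2 differed by -1.64 ± 0.21, Ifitm1 by -0.89 ± 0.19 and Trim30a by -0.55 ± 0.10.

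In MEPs the age effects of Oasl2, Iigp1 and Zbp1 were above the MPP mean age effect by 2.43 ± 0.14, 4.73 ± 0.41 and 3.79 ± 0.26. The fitted difference of Ifit3 was 6.58 ± 1.41, but both young MEP libraries had 0 counts, so that this value depends on the prior count and is no bound. Ifitm1 differed by -3.05 ± 0.29, Ifi203 by -0.92 ± 0.15, Trim30a by -0.87 ± 0.11 and Ddx58 by -0.62 ± 0.12.

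In CLPs the age effects of Mx1, Iigp1, Ifi204 and Ifit3 were above the MPP mean age effect. The differences were 3.25 ± 0.71, 2.53 ± 0.34, 2.11 ± 0.43 and 1.57 ± 0.39. Ifitm1 differed by -1.21 ± 0.20, Ifitm2 by -0.61 ± 0.12 and Ddx58 by -0.40 ± 0.11.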

How the results depend on the processing

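No named log2 fold change reversed its sign under any alternative run. Of 124 named values, 124 kept their call under the DESeq2 Wald test, 121 with DESeq2 size factors, 120 without the filter, 113 with GC content and length offsets and 114 with these offsets and the replicate block. Each fraction fitted alone kept 30 of 65, and the fits with a library left out kept 1001 of 1138. Plain library totals moved 36 of 136 levels by more than the spread between replicates. Where an alternative moved a count, the cause was not tested.

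The replicate block kept 124 of 124 named values and moved the higher count in MPP2 from 1 to 2 and in MPP3 from 0 to 1. Same-numbered libraries did not deviate together (correlations from -0.056 to 0.070), so the numbers were not taken as pairs. For MPP1 the offsets gave 2 higher and 2 lower, and they gave 2 higher for MPP2, 1 higher for MPP3, 1 lower in CLPs, 1 lower in young HSCs and 8 higher in young MEPs. With the block added the lower counts became 3 in MPP1 and 1 in HSCs, and the others were the same counts. For all genes the offsets moved the HSC split from 529 higher and 235 lower to 566 and 406, the HSC difference from the MPPs from 270 and 155 to 282 and 529, the GMP difference to 1152 and 2379 and the MEP difference to 1760 and 1547, while DESeq2 size factors moved the HSC difference to 337 and 113.

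The Wald test gave more calls: 3 higher and 5 lower (MPP1), 3 and 12 (MPP2), 1 and 19 (MPP3), 8 lower in MPP4, 26 lower over the MPP mean and 8 higher in the HSC difference. Fitted alone, HSCs gave 0 higher, MPP1 8 higher and 6 lower, MPP2 7 and 14, MPP3 2 and 7, MPP4 3 higher, GMPs 2 higher, MEPs 9 higher and 2 lower, and CLPs 0 and 0.

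With a library left out, its partner was assumed to vary like the other groups. The higher counts then ran from 0 to 3 in HSCs (0 without young replicate 1 or aged replicate 2), stayed at 0 for MPP1, ran from 0 to 1 for MPP2, 0 to 4 for MPP4 and 11 to 16 in CLPs (11 without young replicate 2). The lower counts stayed at 0 (MPP1) and ran from 1 to 2 (MPP2), 5 to 6 (MPP3), 1 to 3 (MPP4) and 1 to 3 (CLPs). Higher counts ran from 0 to 2 in the HSC difference (0 without young HSC replicate 2), 16 to 28 in the CLP difference (16 without either young CLP library), 11 to 19 in young HSCs (11 without young HSC replicate 2) and 1 to 2 in young GMPs (1 without young GMP replicate 1).

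With 2 libraries per group, genes that are low in a group carry little weight there. Mx1, Mx2, Oas2, Ifi44, Iigp1, Ifi204 and Ifit3 had 0 counts in some libraries. Iigp1, with the largest fold change in GMPs, had 13 and 0 counts in the young GMP libraries.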
